A study of Mus musculus with 8 samples.

Results

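Small nucleolar RNAs (snoRNAs), the spliced genes that host them and 4 other noncoding RNAs that act without a poly(A) tail were followed in RNA-seq libraries of transformed mouse embryonic fibroblasts. Members were all gene symbols that begin with Snora or Snord followed by a digit, all symbols made of Snhg and a number, and Gas5, Rn45s, Rmrp, Rpph1 and Terc. They numbered 126 of the 23420 gene symbols counted: 110 snoRNAs (36 of the H/ACA kind and 74 of the C/D kind), 12 host genes (11 Snhg genes and Gas5) and 4 other noncoding RNAs. The 8 libraries came from Neat1 null (Neat1-/-) cells and wild-type cells, 4 of each, and the comparison asks which RNAs differ between transformed fibroblasts without and with the long noncoding RNA Neat1. All 8 shared the C57BL6/N background, and all expressed the adenoviral oncoprotein E1A and the activated Ras protein HRasV12. Cells were grown in DMEM with serum and libraries were made from 1 µg of total RNA with a stranded TruSeq kit. The labels do not give the deleted Neat1 sequence, do not say which libraries, if any, share an embryo or a culture, and do not say whether poly(A) RNA was selected or ribosomal RNA removed. The p-values therefore measure the spread between these libraries, which may be technical.

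SnoRNAs guide enzymes to chemical modification sites in other RNAs, mainly ribosomal RNA. Box C/D snoRNAs direct 2′-O-methylation by fibrillarin, and box H/ACA snoRNAs direct pseudouridylation by dyskerin. In mammals most are cut out of the introns of host genes, many of which encode ribosomal proteins. Other hosts, the Snhg genes and Gas5, are noncoding, and the spliced, polyadenylated host RNA itself is often short-lived. Rmrp and Rpph1 are the RNA subunits of RNase MRP and RNase P, which process precursor ribosomal RNA and precursor transfer RNA. Terc carries the template of telomerase, and Rn45s is the symbol for the ribosomal RNA precursor.

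Some of the most counted snoRNAs, and Snora78, are shown here, because the short boxes marked in them set the kind of modification a snoRNA guides. Sequences are annotated GENCODE M21 transcripts (GRCm38, the assembly also called mm10). In the H/ACA snoRNAs, capitals mark ACA in the last 6 bases. Snora65 lies at chr2:32963291-32963420 (plus strand) in a retained intron of Rpl12, Snora61 at chr4:132310240-132310369 (plus strand) in exon sequence of Snhg12, and Snora78 at chr17:24719676-24719803 (minus strand) in an intron of Snhg9.
Snora65: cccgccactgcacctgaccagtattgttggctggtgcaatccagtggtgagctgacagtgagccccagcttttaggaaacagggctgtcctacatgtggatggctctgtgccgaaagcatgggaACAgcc
Snora61: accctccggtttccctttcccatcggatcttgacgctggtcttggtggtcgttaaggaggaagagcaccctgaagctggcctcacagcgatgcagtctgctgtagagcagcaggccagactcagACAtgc
Snora78: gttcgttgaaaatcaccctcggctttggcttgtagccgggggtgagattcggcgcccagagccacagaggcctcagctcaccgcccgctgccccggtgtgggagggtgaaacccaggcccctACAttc

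In the C/D snoRNAs, capitals mark TGATGA in the first 20 bases and CTGA in the last 20 bases. Snord22 lies at chr19:8725866-8725991 (plus strand) in exon sequence of Snhg1, Snord96a at chr11:48802032-48802112 (plus strand) in exon sequence of Gnb2l1 (Rack1), and Snord99 at chr4:132310691-132310764 (plus strand) in exon sequence of Snhg12. Snord104, at chr11:106500993-106501062 (plus strand), had no annotated host. Snord22 lacked TGATGA in its first 20 bases.
Snord22: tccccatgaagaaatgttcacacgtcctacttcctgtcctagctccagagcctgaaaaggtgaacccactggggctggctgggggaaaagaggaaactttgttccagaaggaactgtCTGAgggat
Snord104: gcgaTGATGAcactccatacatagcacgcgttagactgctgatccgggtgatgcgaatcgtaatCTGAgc
Snord96a: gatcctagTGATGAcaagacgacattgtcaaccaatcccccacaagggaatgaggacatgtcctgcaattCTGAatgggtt
Snord99: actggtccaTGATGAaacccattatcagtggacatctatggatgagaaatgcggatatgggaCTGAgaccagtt

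Searched in the same way in all 110 annotated snoRNA sequences, TGATGA stood in the first 20 bases of 47 of 74 C/D snoRNAs (63.5%) and 0 of 36 H/ACA snoRNAs, and its reverse complement in none of them. CTGA stood in the last 20 bases of 97.3% of C/D and 11.1% of H/ACA snoRNAs, and its reverse complement in 5.41% of C/D and 13.9% of H/ACA snoRNAs. ACA stood in the last 6 bases of 91.7% of H/ACA and 5.41% of C/D snoRNAs, and its reverse complement in 5.56% of H/ACA and 9.46% of C/D snoRNAs. The class names used here thus matched the letters of the sequences in most members. The annotation placed 54 snoRNAs in introns, 35 in introns that some annotated transcript retains, 17 in exons of a spliced transcript and 4 outside any annotated host.

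Neat1 had 6.91, 11.3, 7.90 and 6.12 CPM in Neat1 null libraries 1 to 4, against 138, 588, 753 and 1319 CPM in wild-type libraries 1 to 4, with no overlap. CPM are counts scaled to a library size of 1000000, after adjusting each library with its TMM factor. Counts assigned to genes ranged from 19651035 to 38950207 in Neat1 null and from 31651625 to 37069334 in wild-type libraries. The lowest count was that of Neat1 null library 1, which had a TMM factor of 0.57, against 0.73 to 1.32 in the other 7. That factor raises its CPM relative to its raw share of counts. By group, the factors were 0.57 to 1.05 in Neat1 null and 1.08 to 1.32 in wild-type libraries, with no overlap. Scaling thus raised the CPM of every Neat1 null library relative to every wild-type library. Of 10 fibroblast markers, all were detected, and their summed level was 2647 to 4102 CPM in Neat1 null and 1895 to 3524 CPM in wild-type libraries. Vim held most of that sum, and the members did not move together. Pdgfra was at 3.91 to 10.9 CPM in Neat1 null and 40.9 to 148 CPM in wild-type libraries (log2 fold change -3.59, edgeR adjusted p = 0.00806), and S100a4 was higher in Neat1 null libraries (2.08, edgeR adjusted p = 0.0473). The 5 epithelial markers summed to 249 to 3180 CPM in Neat1 null and 194 to 633 CPM in wild-type libraries, Krt14 being at 0 throughout. The highest sum was that of Neat1 null library 1. Krt18 held most of the epithelial sum, with 3142 CPM in that library. There Krt8 was also at its highest (2.06 CPM), while Epcam (33.9 CPM) and Cdh1 (1.35 CPM) were the lowest of the Neat1 null group. In the leukocyte list Ptprc was at 0, and Cd68 was at 3.68 to 18.3 CPM in Neat1 null and 8.88 to 102 CPM in wild-type libraries (log2 fold change -2.47, edgeR adjusted p = 0.0239). In the muscle list Myod1 was at 0, and Myog was at 0.269 CPM in Neat1 null library 1 and at 0 elsewhere. Des of that list was detected throughout, at 2.64 to 14.6 CPM in Neat1 null and 2.94 to 15.3 CPM in wild-type libraries. The part of these differences in the results below was not tested.

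snoRNAs were sparsely counted. Of the 110, 18 had no count in any of the 8 libraries (4 H/ACA and 14 C/D), and 19 of the remaining 92 had fewer than 10 counts in all libraries together. The median snoRNA had 29.5 counts in total and the median host gene 2935. A library held between 70 and 81 detected snoRNAs in the Neat1 null group and between 71 and 84 in the wild-type group. A count of 0 allows a level of up to 0.269 CPM in Neat1 null library 1 and up to 0.106 CPM in the others (3 counts, counting error only). Per kilobase of annotated length, the median level was 1.43 CPM per kb in Neat1 null and 0.878 CPM per kb in wild-type libraries for snoRNAs. For the 10 host genes with an annotated length it was 26.1 CPM per kb in Neat1 null and 15.4 CPM per kb in wild-type libraries.

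A few members carried each class. Snora65 held 31.8% of all 3823 H/ACA counts. Snord22, Snord104 and Snord96a held 550, 549 and 436 of 3387 C/D counts. Gas5 and Snhg1 held 20954 and 17446 of 69578 host gene counts. Across the 110 snoRNAs, length and total count had a Spearman correlation of 0.25, and across 98 pairs the counts of a snoRNA and its host 0.24. These correlations are across genes that share libraries and, in part, hosts, so they only describe the table.

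Of the 126 members, 32 had counts high enough to be tested: 12 H/ACA snoRNAs, 6 C/D snoRNAs, 11 host genes and 3 of the other noncoding RNAs. By edgeR's quasi-likelihood test, 5 of these 32 passed an adjusted p of 0.05. The adjustment (Benjamini-Hochberg) took in all 13316 tested genes, of which 17.7% passed. Those higher in Neat1 null libraries were Snora68, Snhg1, Snhg10 and Rn45s, against 9.97% of all genes higher. Snhg11 was lower, against 7.72% of all genes lower. The share of members called was thus near that of all genes. Among tested members the median log2 fold change was 0.88 for snoRNAs and 0.86 for host genes, against -0.06 for all genes. A snoRNA that reached the count filter had to be well counted in at least 1 group, so these medians do not describe the 110 snoRNAs.

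In CPM, the Neat1 null libraries lay above all wild-type libraries for 6 of the 108 members with a count (Snhg1, Snhg10, Snhg9, Snora68, Snora78 and Snord23), against 8.87% of all genes with a count. They lay below for Snhg11 alone, against 9.27% of all genes with a count. The highest CPM of all 8 libraries was that of Neat1 null library 1 in 44 of the 92 snoRNAs with a count, in 10 of 12 host genes and in 3 of the 4 other noncoding RNAs. The same library was lowest, or tied for lowest, in 22 of the 92 snoRNAs, in 0 of the host genes and in 1 of the others. The share over all genes was not computed, and the low TMM factor of this library raises all its CPM. These counts therefore only describe the members. In bulk RNA, fewer cells that hold an RNA and less of it per cell cannot be told apart.

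Snhg1, the noncoding host of a cluster of C/D snoRNAs (chr19:8723475-8726443, plus strand), rose in Neat1 null libraries. It had 531, 63.6, 67.7 and 63.9 CPM in Neat1 null libraries 1 to 4, against 42.3, 22.8, 31.7 and 34.3 CPM in wild-type libraries 1 to 4. Neat1 null libraries 2 to 4 lay close together, library 1 stood far above them, and the groups did not overlap. Means were 182 ± 233 CPM in Neat1 null and 32.8 ± 8.02 CPM in wild-type libraries (SD, n = 4 each). The log2 fold change was 2.47 (SE 0.67, edgeR adjusted p = 0.0278). Leaving out Neat1 null library 1 brought it to 0.99 and ended the call (edgeR adjusted p = 0.0541). Without Neat1 null library 3 (log2 fold change 2.75) or wild-type libraries 2, 3 or 4 (2.33, 2.45 and 2.49) it was not called either, the edgeR adjusted p over all 8 such fits ranging from 0.0143 to 0.0931. DESeq2 gave no adjusted p for Snhg1. The annotated exons of Snhg1 include Snord22 and 7 other snoRNA models, so part of its counts may belong to them.

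Gas5, another noncoding host of C/D snoRNAs and a transcript known to accumulate in growth-arrested cells (chr1:161034422-161038539, plus strand), gave no such separation. It had 268, 40.1, 42.9 and 40.3 CPM in Neat1 null libraries 1 to 4, against 101, 36.3, 110 and 96.1 CPM in wild-type libraries 1 to 4. Library 1 of the Neat1 null group was the highest of all, the other 3 Neat1 null libraries lay below 3 of the 4 wild-type libraries, and wild-type library 2 was the lowest. The fit gave a log2 fold change of 0.19 (SE 0.61, edgeR adjusted p = 0.839), which changed sign to -1.06 without Neat1 null library 1, to -0.060 without wild-type library 2 and to -0.051 with upper-quartile scaling.

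Snhg10, a long intergenic noncoding host (chr12:105030617-105032279, minus strand), also passed the test, at a low level. It had 8.26, 1.67, 2.36 and 2.04 CPM in Neat1 null libraries 1 to 4, against 0.768, 1.26, 1.09 and 0.827 CPM in wild-type libraries 1 to 4. The groups did not overlap, and library 1 was again the highest. Its log2 fold change was 1.83 (SE 0.61, edgeR adjusted p = 0.0490). It lost the call without any single wild-type library (1.74, 1.98, 1.89 and 1.76 for libraries 1 to 4), and without library 1 (1.03) or library 3 (1.998) of the Neat1 null group. Upper-quartile scaling (1.61) and a length and GC correction, applied to every library (0.73), also ended the call.

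Snhg11 was the only member called lower, although 5 of the 32 tested members had a negative log2 fold change. This host (chr2:158375638-158386145, plus strand), which the annotation lists as protein-coding, had 0.539, 0.997, 0.529 and 1.35 CPM in Neat1 null libraries 1 to 4, against 1.62, 2.19, 10.1 and 9.08 CPM in wild-type libraries 1 to 4. Wild-type libraries 3 and 4 were far above the other two, and the highest Neat1 null library lay just below the lowest wild-type library. Its log2 fold change was -2.73 (SE 0.67, edgeR adjusted p = 0.0201). The call was lost when wild-type library 3 (-2.31), wild-type library 4 (-2.42) or library 3 of the Neat1 null group (-2.53) was left out, and under the length and GC correction (-2.05).

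The other tested hosts did not pass the threshold. Snhg6, Snhg8, Snhg5 and Snhg12, the next most counted, had log2 fold changes of 0.56, 0.88, 0.88 and 0.86 (SE 0.37, 0.40, 0.58 and 0.49). Each was highest in Neat1 null library 1, with 75.4, 65.7, 93.8 and 45.7 CPM. In the other 3 Neat1 null libraries they averaged 31.4, 25.2, 14.4 and 11.1 CPM, against wild-type means of 28.8, 19.2, 18.6 and 10.8 CPM. When Neat1 null library 1 was left out, their log2 fold changes were 0.12, 0.39, -0.36 and 0.039. For these 4 hosts most of the difference thus lay in that library. Snhg9, whose exons share sequence with Rps2 on the opposite strand, had 11, 5, 6 and 5 counts in Neat1 null libraries 1 to 4, against 5, 2, 4 and 1 counts in wild-type libraries 1 to 4, too few to be tested.

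**Figure D1:**
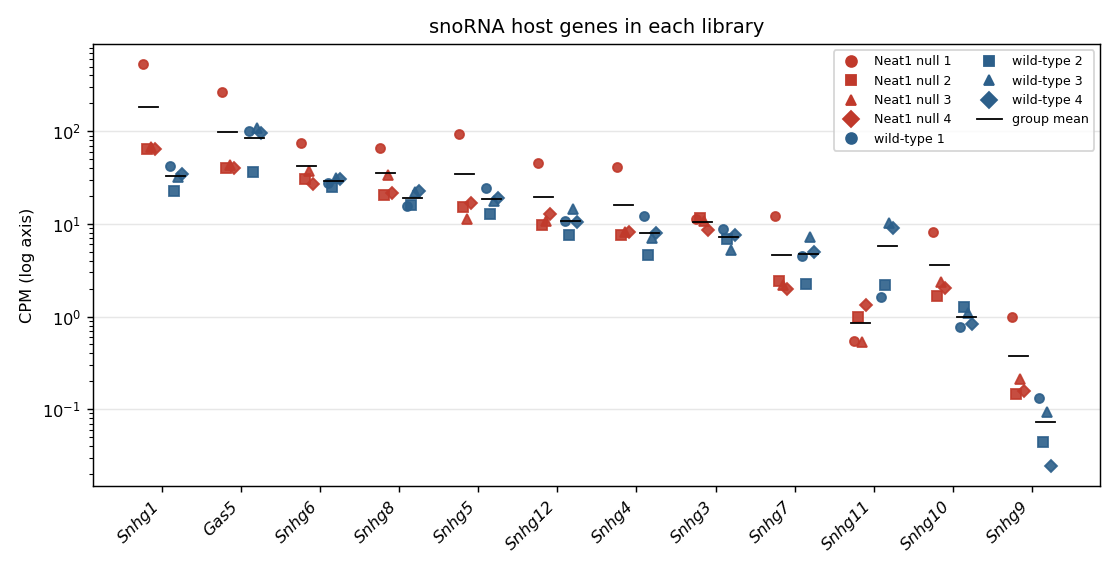
CPM on a log axis of host genes in each library, with 4 Neat1 null libraries left of 4 wild-type libraries for every gene and a bar at the group mean. Snhg1 separates the groups, with 531 CPM in Neat1 null library 1, while Gas5 overlaps between them.

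Snora68, an H/ACA snoRNA that in human guides a modification of the large ribosomal subunit RNA, was the only tested snoRNA called higher. A positive log2 fold change was seen in 15 of the 18 tested snoRNAs. Snora68 was at the following levels. It had 5.93, 1.38, 1.76 and 1.22 CPM in Neat1 null libraries 1 to 4, against 1.17, 0.331, 0.280 and 0.268 CPM in wild-type libraries 1 to 4. Library 1 was the highest in each group, and Neat1 null library 4 was barely above wild-type library 1. Without TMM scaling this order turned, with 1.24 in Neat1 null library 4 and 1.26 in wild-type library 1, as counts per 1000000 unscaled gene counts. Its log2 fold change was 2.30 (SE 0.72, edgeR adjusted p = 0.0396). The call was lost without Neat1 null library 1 (1.52) or 3 (2.45), without wild-type libraries 2, 3 or 4 (2.15, 2.10 and 2.09), and under the length and GC correction (0.82).

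Snora65, the most counted snoRNA, also guides modification of the large ribosomal subunit RNA in human. It had 7.27, 4.72, 10.6 and 4.58 CPM in Neat1 null libraries 1 to 4, against 5.43, 2.50, 3.03 and 1.97 CPM in wild-type libraries 1 to 4. The highest was Neat1 null library 3, not library 1, and wild-type library 1 lay among the Neat1 null values. The log2 fold change of 1.07 (SE 0.49) did not pass (edgeR adjusted p = 0.128), and it was -0.17 after the length and GC correction.

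Snora61, one of the snoRNAs of Snhg12, had 2.51, 1.29, 2.01 and 0.909 CPM in Neat1 null libraries 1 to 4, against 1.03, 0.309, 0.606 and 0.414 CPM in wild-type libraries 1 to 4. Wild-type library 1 lay above 1 Neat1 null library. Its log2 fold change was 1.49 (SE 0.60, edgeR adjusted p = 0.0886), and it passed without wild-type library 1 (1.91) and with DESeq2 (1.57, adjusted p = 0.0298). Snora64, Snora7a and Snora31 had log2 fold changes of 0.53, 1.16 and 0.99 that did not pass (SE 0.53, 0.66 and 0.65), with overlapping groups.

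Snora78, which lies in an intron of Snhg9, was chosen after its values were seen. It had 19, 13, 12 and 13 counts in Neat1 null libraries 1 to 4, against 3, 3, 2 and 4 counts in wild-type libraries 1 to 4. Its Neat1 null counts were each at least as high as 3 times its wild-type counts, in library 1 despite the lowest depth. It fell under the count filter. Fitted with no filter its log2 fold change was 3.21 (SE 0.86, edgeR adjusted p = 0.0158, where 14.1% of 18181 genes passed). In fits that left out library 3 of the Neat1 null group, or library 3 or 4 of the wild-type group, it did not pass (3.39, 3.04 and 3.36, edgeR adjusted p = 0.0646, 0.0718 and 0.0684). Its position overlaps no annotated exon of another gene.

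No C/D snoRNA passed the edgeR threshold. Of the 6 tested, 2 had an unadjusted p under 0.05, and DESeq2 called 2 (Snord104 and Snord22), where it called 23.9% of all genes. Snord104, which in human guides methylation of the large ribosomal subunit RNA, had 14.1, 2.02, 3.31 and 1.03 CPM in Neat1 null libraries 1 to 4, against 2.12, 0.994, 0.815 and 0.876 CPM in wild-type libraries 1 to 4. Library 1 of the Neat1 null group stood far above all others, and wild-type library 1 lay within the range of the other Neat1 null libraries. Its log2 fold change was 2.07 (SE 0.74, edgeR adjusted p = 0.0624). It passed when wild-type library 1 (2.50) or Neat1 null libraries 2 (2.34) or 4 (2.44) were left out, each in turn.

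Snord22, known from frog oocytes to be needed for processing of the small ribosomal subunit RNA, had 14.5, 1.41, 2.82 and 0.721 CPM in Neat1 null libraries 1 to 4, against 2.20, 0.662, 1.44 and 1.51 CPM in wild-type libraries 1 to 4. The groups overlapped, and the difference of the means rested on library 1. The fit gave a log2 fold change of 1.72 (SE 0.79, edgeR adjusted p = 0.132), and 0.18 without Neat1 null library 1.

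Snord96a, which in human guides methylation of a ribosomal RNA of the large subunit, had overlapping groups. It had 2.78, 2.05, 1.69 and 1.44 CPM in Neat1 null libraries 1 to 4, against 2.09, 1.32, 1.35 and 1.07 CPM in wild-type libraries 1 to 4 (log2 fold change 0.44, SE 0.51). Snord99 of Snhg12 had 76, 8, 5 and 13 counts in Neat1 null libraries 1 to 4, against 10, 4, 5 and 3 counts in wild-type libraries 1 to 4, so its excess lay almost wholly in Neat1 null library 1.

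**Figure D2:**
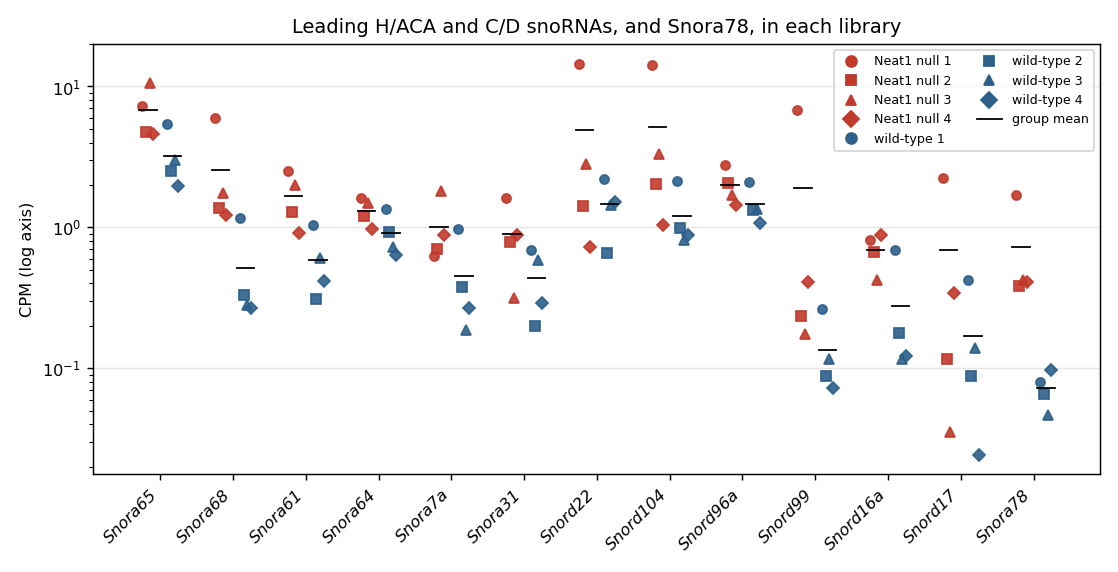
CPM on a log axis of snoRNAs in each library, Neat1 null libraries left of wild-type libraries, with a bar at the group mean. Snora68 separates the groups narrowly, and Snord104 and Snord22 stand at 14.1 and 14.5 CPM in Neat1 null library 1.

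Rn45s rose in Neat1 null libraries by the test, but its groups overlapped. It had 92303, 5654, 6273 and 4607 CPM in Neat1 null libraries 1 to 4, against 1279, 1512, 2206 and 7230 CPM in wild-type libraries 1 to 4. One library of each group stood apart on the high side, and wild-type library 4 lay above 3 of the 4 Neat1 null libraries. The log2 fold change was 3.15 (SE 1.02, edgeR adjusted p = 0.0452). The call was lost without any single wild-type library (2.91, 2.93, 3.02 and 4.03 for libraries 1 to 4), and without library 1 (0.84) or library 3 (3.49) of the Neat1 null group. It was also lost with upper-quartile scaling (2.86), with no low-count filter (3.14) and under the length and GC correction (3.15, edgeR adjusted p = 0.0685). Rn45s had no annotated length, so that correction adjusted other genes and not Rn45s itself. DESeq2 gave no adjusted p for it. Over the 70 ways to split the 8 libraries, the exact 2-sided permutation p was 0.114, where 0.02857 is the smallest possible. The annotation used here held no entry for this symbol, so its position is not given.

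Rmrp (chr4:43492788-43493058, minus strand) and Rpph1 (chr14:50807449-50807767, minus strand) followed the same libraries. Rmrp had 20.4, 1.99, 0.917 and 0.659 CPM in Neat1 null libraries 1 to 4, against 0.344, 0.132, 0.256 and 1.48 CPM in wild-type libraries 1 to 4. Rpph1 had 29.6, 1.70, 2.36 and 0.878 CPM in Neat1 null libraries 1 to 4, against 0.530, 0, 0.373 and 1.41 CPM in wild-type libraries 1 to 4. In both, Neat1 null library 1 was more than 10 times any other, and wild-type library 4 lay among the remaining Neat1 null libraries. The log2 fold change was 3.40 for Rmrp (SE 1.15, edgeR adjusted p = 0.0597) and 3.88 for Rpph1 (SE 1.40, edgeR adjusted p = 0.0780). Leaving out Neat1 null library 1 brought these to 1.10 and 1.50. Without the robust option both passed. Rmrp passed without Neat1 null library 2 (3.71) or 4 (3.80). With no low-count filter neither passed (3.39 for Rmrp and 3.87 for Rpph1, edgeR adjusted p = 0.108 and 0.160). The length and GC correction brought Rmrp to 1.48 (edgeR adjusted p = 0.273). Rmrp overlaps exon sequence of Ccdc107 on the other strand, and Rpph1 exon sequence of Ccnb1ip1 on the same strand.

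Terc (chr3:96414437-96414859, minus strand) did not share that pattern. It had 0, 7, 9 and 6 counts in Neat1 null libraries 1 to 4, against 22, 4, 5 and 8 counts in wild-type libraries 1 to 4. The library that was highest for the other 3 noncoding RNAs, Neat1 null library 1, was the only one without a Terc count, which at its depth allows up to 0.269 CPM. The exact 2-sided permutation p was 0.657.

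**Figure D3:**
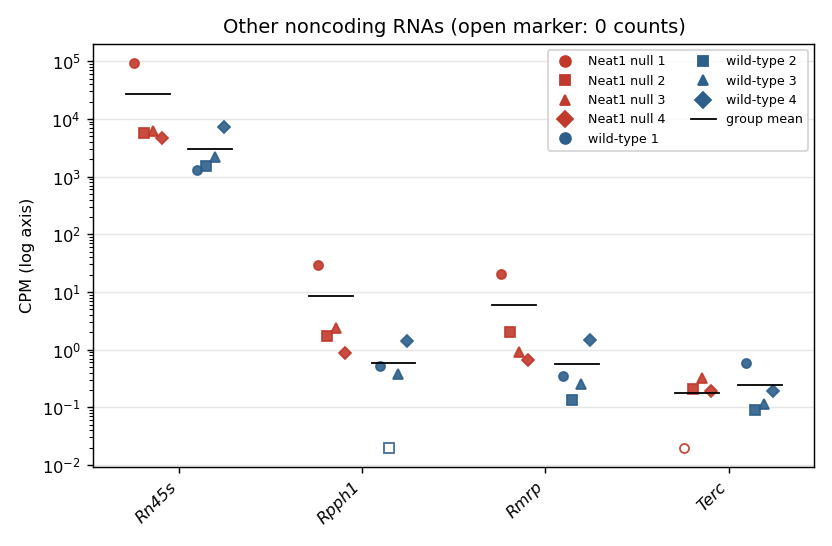
CPM on a log axis of Rn45s, Rmrp, Rpph1 and Terc in each library, Neat1 null libraries left of wild-type libraries, with a bar at the group mean and counts of 0 as open markers near the bottom of the axis. The highest library in Rn45s, Rmrp and Rpph1 is Neat1 null library 1, which has no Terc count, and wild-type library 4 is the highest of its group in Rn45s, Rmrp and Rpph1.

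Summed over the class, snoRNAs made up 88.2, 28.5, 37.0 and 24.8 CPM in Neat1 null libraries 1 to 4, against 34.8, 13.7, 19.2 and 15.9 CPM in wild-type libraries 1 to 4. Host genes made up 1154, 204, 228 and 204 CPM in Neat1 null libraries 1 to 4, against 249.6, 138, 258 and 244 CPM in wild-type libraries 1 to 4. Apart from Neat1 null library 1, the summed host genes were at 212 ± 13.7 CPM in Neat1 null (SD, n = 3) and 223 ± 56.5 CPM in wild-type libraries (SD, n = 4). The same libraries gave 30.1 ± 6.25 CPM in Neat1 null and 20.9 ± 9.56 CPM in wild-type for snoRNAs. Both differences depended on the TMM factors. In CPM computed without these factors, snoRNAs in the same libraries were at 27.4 ± 2.44 in Neat1 null and 25.1 ± 9.04 in wild-type. Host genes were then at 196 ± 26.4 in Neat1 null and 274 ± 76.5 in wild-type.

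Within a library, the ratio of snoRNA to host gene counts needs no scaling. There were 7.64, 14.0, 16.3 and 12.2 snoRNA counts per 100 host gene counts in Neat1 null libraries 1 to 4, against 14.0, 9.91, 7.43 and 6.53 in wild-type libraries 1 to 4. Library 1 went against the rest of its group on both sides: it was the lowest of the Neat1 null libraries and the highest of the wild-type libraries. Group means were 12.5 ± 3.65 in Neat1 null and 9.46 ± 3.32 in wild-type libraries (SD, n = 4 each), closer than the spread within either group. The difference of mean log2 ratios was 0.41 and ranged from 0.26 to 0.63 with 1 library left out. When each member counted equally, as mean log2(CPM + 1), the difference had the opposite sign (-0.23). Most snoRNAs lay far below 1 CPM, where adding 1 shrinks any change, while most hosts lay above it. This sign therefore cannot decide the direction of the ratio.

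The make-up of the host class differed between the groups in the share of Snhg1. This gene took 46.0%, 31.2%, 29.7% and 31.3% of host gene counts in Neat1 null libraries 1 to 4, against 16.9%, 16.5%, 12.3% and 14.1% in wild-type libraries 1 to 4. Gas5 took 23.3%, 19.7%, 18.8% and 19.7% in Neat1 null libraries, against 40.3%, 26.3%, 42.4% and 39.4% in wild-type libraries. For both genes the groups did not overlap, but shares of 1 sum depend on each other. Of the host counts without Snhg1, Gas5 took 43.1%, 28.6%, 26.8% and 28.7% in Neat1 null libraries 1 to 4, against 48.5%, 31.5%, 48.4% and 45.8% in wild-type libraries 1 to 4, and the groups overlapped. Of the host counts without Gas5, Snhg1 took 36.6% to 59.98% in Neat1 null and 21.3% to 28.4% in wild-type libraries, still with no overlap. These shares were computed after the values of Snhg1 and Gas5 were known and got no test.

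**Figure D4:**
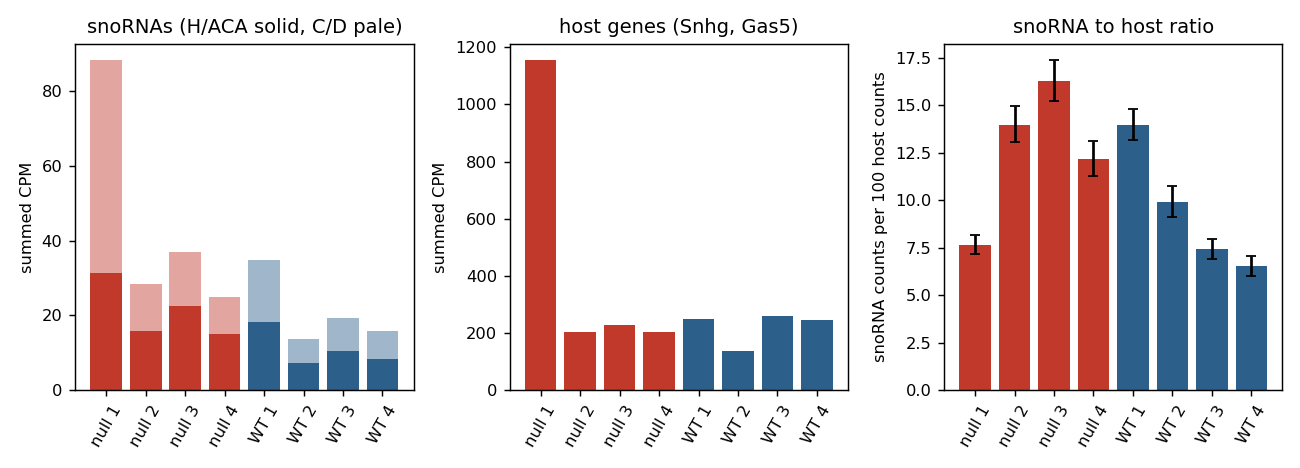
Summed CPM of snoRNAs (H/ACA solid, C/D pale), summed CPM of host genes, and snoRNA counts per 100 host gene counts in each library, Neat1 null libraries left of wild-type libraries. Error bars on the ratio are 95% counting intervals. Library 1 of the Neat1 null group is the highest in both sums and the lowest Neat1 null library in the ratio, at 7.64.

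Of the 110 snoRNAs, 99 had an annotated host that was also counted, in 72 host genes: 32 snoRNAs in 23 ribosomal protein genes, 9 in 6 Snhg genes or Gas5, and 58 in 43 other genes. Of the ribosomal protein hosts, 17 of 23 were called higher and 0 lower, against 9.97% of all genes higher. With wild-type library 3 or 4, or library 3 of the Neat1 null group, left out, 0 of the 23 were called. In those fits only 2, 1 and 7 of all genes were called higher, so the counts of 0 are not particular to these hosts. The count was 8 with Neat1 null library 1 left out (918 of all 13683 tested genes higher) and 7 with wild-type library 2 left out (845 of 13524). It was 11 with wild-type library 1 left out (1449 of 13584) and 6 under the length and GC correction (949 of 13316). All 76 ribosomal protein genes took 20.4%, 8.18%, 13.0% and 7.19% of counts in Neat1 null libraries 1 to 4, against 5.22% to 6.18% in wild-type libraries. Of the 8 snoRNAs inside these hosts that could be tested, 1 passed.

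In 17 pairs both snoRNA and host were tested, and the snoRNA had the lower log2 fold change in 12, with a median difference of -0.46. Snora65 had 1.07 and its host Rpl12 1.76. Snora64 had 0.53 and its host Rps2 2.04. Snora3 had -0.07 and its host Rpl27a 1.35. In these pairs the snoRNA changed less than the messenger RNA around it. Snora61 (1.49) and Snhg12 (0.86) had the other order. Snora81 had -0.56 and its host Eif4a2, a translation initiation factor gene, -1.68. These differences within pairs were not tested. In 15 of the 17 pairs the snoRNA lies in exon or retained intron sequence of its host, where reads of the 2 cannot be told apart. The 2 pairs without shared sequence went opposite ways, so their median difference of 0.02 does not describe either. The difference was -0.81 for Snora41 and its host Eef1b2, and 0.84 for Snora31 and its host Tpt1.

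Snora65 made up 1.38, 2.44, 3.49 and 3.44 counts per 1000 Rpl12 counts in Neat1 null libraries 1 to 4, against 6.03, 2.38, 3.86 and 2.89 in wild-type libraries 1 to 4. The groups overlapped in this ratio. The snoRNAs of Snhg12, summed, had 20.6, 22.4, 24.9 and 15.5 counts per 100 Snhg12 counts in Neat1 null libraries 1 to 4, against 17.3, 7.33, 7.21 and 7.69 in wild-type libraries 1 to 4. Here 3 wild-type libraries lay well below all Neat1 null libraries, and wild-type library 1 lay among them. Snord22 had 2.74, 2.21, 4.16 and 1.13 counts per 100 Snhg1 counts in Neat1 null libraries 1 to 4, against 5.20, 2.90, 4.55 and 4.39 in wild-type libraries 1 to 4. These groups overlapped too, with the mean lower in Neat1 null (2.56 ± 1.26) than in wild-type libraries (4.26 ± 0.972, SD, n = 4 each).

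**Figure D5:**
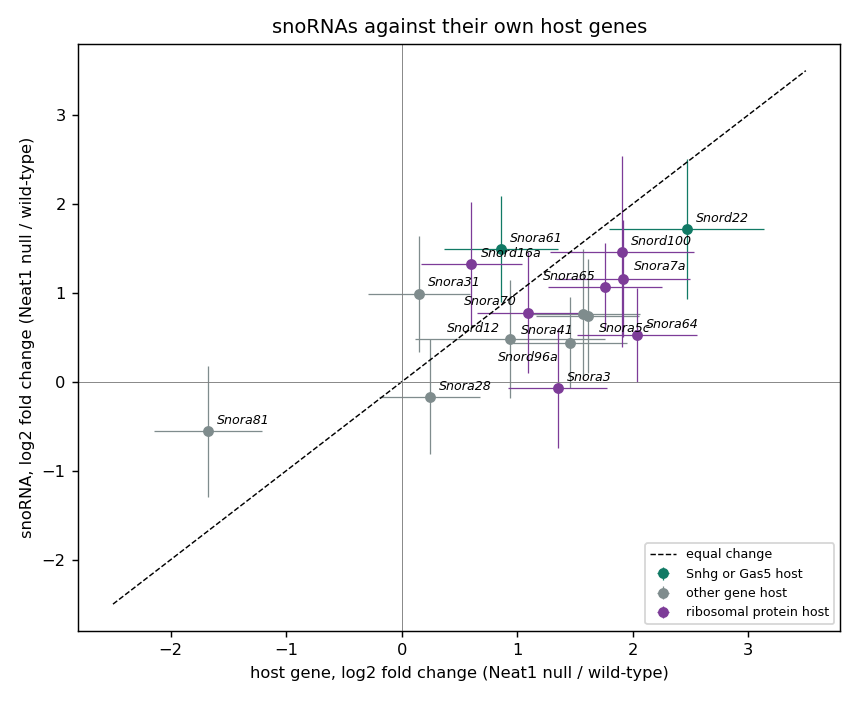
Log2 fold change (Neat1 null over wild-type) of 16 of the 17 snoRNAs on the vertical axis against that of the gene that hosts each on the horizontal axis, with standard errors as bars and a dashed line at equal change. In 12 pairs the point lies below the line.

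Genes for proteins that work with these RNAs were followed from fixed lists. Of 81 tested genes in 9 lists, 29 were called higher and 1 lower, against 9.97% of all genes higher and 7.72% lower. For these lists, rose and fell stand for such calls. Their median log2 fold change was 0.98, that of all genes -0.06. Among the core proteins of C/D snoRNPs 1 of 4 rose, the methyltransferase fibrillarin (Fbl, 2.50). Among H/ACA proteins and their assembly factors 4 of 6 rose, among them Nhp2 (2.84), Nop10 (1.59) and Shq1 (1.08). Of 8 snoRNP assembly genes 4 rose, with Pih1d1 highest at 2.98.

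Protein genes of RNase P and RNase MRP, the enzymes of Rpph1 and Rmrp, rose in 6 of 11 cases, led by Pop5 (2.82) and Rpp25l (2.51). RNA polymerase I, which transcribes the ribosomal RNA precursor, had 5 of 14 genes higher, and the exosome, which trims snoRNA ends, 4 of 12. Of 10 genes of nonsense-mediated decay, the pathway that degrades Gas5 and other spliced host RNAs, 1 rose, and of 12 genes of ribosomal RNA processing 3 rose. In the telomerase list Wrap53 rose, and Tert, the catalytic subunit that pairs with Terc, was the gene that fell (-1.45, SE 0.37, edgeR adjusted p = 0.0227). None of these genes was called when library 3 or 4 of the wild-type group or library 3 of the Neat1 null group was left out. Hardly any gene passed there, with 18, 11 and 13 called in all. The absence of calls is therefore not particular to these lists. Leaving out Neat1 null library 1, or wild-type library 2, left calls for 17 genes that rose and 1 that fell. Among all tested genes, 918 of 13683 and 845 of 13524 were then higher. Correcting for length and GC left 16 that rose and 1 that fell, where 949 of 13316 tested genes were higher.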

How the data were processed

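The values are unnormalized counts of reads for each gene symbol, which the authors deposited for every library separately. Per the submitters' processing notes, CASAVA 1.8, STAR, DESeq2 and the mm10 build were used, without their roles. How reads were counted, with which strand setting and annotation, was not given in the sources used here. Reads outside genes made up 5.48% to 15.7% of a library's deposited counts and ambiguous reads 1.09% to 1.76%. These entries name no gene and were left out of library sizes and tests.

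Genes kept by filterByExpr (minimum count 10) were tested in R 4.3.3 with edgeR 4.0.16 (TMM factors, robust quasi-likelihood F test, 2-sided, genotype as the only term), with Benjamini-Hochberg adjustment over all genes and a threshold of 0.05. A log2 fold change is Neat1 null over wild-type. A standard error is the log2 fold change divided by the square root of F. Single RNAs were also compared by exact permutation (scipy 1.17.1). Intervals and floors cover counting error only. Within a group, every pair of libraries differed beyond sampling noise (lowest chi-square over degrees of freedom 59.3), so each counted as 1 replicate.

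The fit was tested on simulated counts of this comparison with 13616 genes tested. Genes changed 2-fold were recovered in 8%, 4-fold in 72% and 8-fold in 98% of cases. False calls were 4.17%. The simulated counts were drawn independently for each gene, with 50 genes changed at each fold and no library set apart. In the real libraries, where many genes were called and Neat1 null library 1 stood apart, these rates may not hold.

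Positions, hosts, lengths and sequences came from GENCODE M21 (GRCm38). Of the symbols, 21777 matched as such, 1298 by synonym, and 345 had no match. Coordinates are 1-based. SnoRNAs and hosts that share exon or retained intron sequence have uncertain counts, since handling of shared reads was not given. No set test was run. For 1 snoRNA the host is not reported here, and that pair is not plotted.

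The members and lists were chosen with earlier results of these data known. Named genes were Rn45s, Rmrp, Rpph1, Terc, Gas5 and Neat1, the 6 members of the highest mean CPM in each of the classes Snora, Snord and host, members past the threshold, and up to 3 called genes of the smallest p per protein list. Snhg9, Snora78, Snord23, Snora3, Snora41, Snora81 and the ratios within libraries were chosen after their values were seen. Alternatives were other size factors, other filters, DESeq2 1.42.0, no robust option, each library left out, a replicate block, Neat1 null libraries 1 and 3 or Rn45s left out, and a length and GC correction (splines with 5 degrees of freedom).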

Additional observations from a re-analysis of the deposited data

Results flagged for a closer look

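In each group of 4 libraries, a library was picked out where its gap to the nearest other library was a larger part of the whole range of the group than Dixon's critical value for 4 samples allows (at 95%). Of 54 groups of values examined, 19 held such a library, where chance gives about 1 in 20 for independent, normally distributed values. Neat1 null library 1 accounted for 13 of the 19, wild-type library 1 for 3, wild-type library 4 for 2 and wild-type library 2 for 1. The groups share their libraries, and the host sum contains hosts that were also examined singly. They are thus not independent, and the count of 19 is not a test against that rate.

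Neat1 null library 1 was far above the other 3 Neat1 null libraries in the noncoding RNAs Rn45s (92303 CPM), Rmrp (20.4 CPM) and Rpph1 (29.6 CPM). The same library stood apart in the host genes Gas5 (268 CPM), Snhg1 (531 CPM), Snhg5 (93.8 CPM), Snhg12 (45.7 CPM) and Snhg10 (8.26 CPM) and in their sum (1154 CPM). Among snoRNAs it stood apart in Snora68 (5.93 CPM), Snord22 (14.5 CPM), Snord99 (6.82 CPM) and Snord17 (2.24 CPM). Its part in the group differences is given by the fits without it, and the cause of its position was not tested.

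Wild-type library 4 was high in Rn45s (7230 CPM) and Rmrp (1.48 CPM) relative to the other wild-type libraries. Wild-type library 1 was high in Snora68 (1.17 CPM), Snord104 (2.12 CPM) and Snord16a (0.689 CPM). Wild-type library 2 had the lowest sum of host genes (138 CPM).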

How the results depend on the processing

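The number of all genes called was 2356 in the fit reported, 3559 with DESeq2, 7 without Neat1 null libraries 1 and 3, and 11 to 2965 with 1 library left out. The number of small noncoding members called was 2 as reported, 1 with upper-quartile factors, 4 with no low-count filter, 4 without the robust option, 5 with DESeq2, 0 after the length and GC correction, 0 without Neat1 null libraries 1 and 3, 1 with Rn45s left out, and 0 to 5 with 1 library left out. The number of host genes called was 3 as reported, 1 after the length and GC correction, 0 without Neat1 null libraries 1 and 3, and 0 to 3 with 1 library left out. Without Neat1 null library 3, wild-type library 3 or wild-type library 4, the calls over all genes were 13, 18 and 11, and 0 members of either kind were called. Leaving out Neat1 null library 1 left 0 small noncoding members and 1 host gene, and leaving out wild-type library 2 left 1 of each. The log2 ratio of snoRNAs to hosts differed by 0.41, and by -0.23 as mean log2(CPM + 1), where the added 1 shrinks changes of sparsely counted snoRNAs.

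The deviations of same-numbered libraries had correlations of 0.32, -0.26, -0.01 and 0.11. The 0.32 of the libraries numbered 1 lay above the values of either with differently numbered libraries, which ran from -0.28 to -0.02. The highest value of all, 0.36, joined Neat1 null library 3 and wild-type library 2. So few values cannot decide whether the numbers pair the libraries. With the number as a replicate block, 1 small noncoding member and 2 host genes were called, where 1092 of all 13316 tested genes were higher and 1151 lower. The calls of Rn45s (log2 fold change 1.96, edgeR adjusted p = 0.145) and Snhg10 (1.51, edgeR adjusted p = 0.0906) were lost. In that fit 7 of the 23 ribosomal protein hosts were called, and Gas5 had a log2 fold change of -0.29.

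Of 386 values of 22 named genes under alternatives, 320 kept their direction and side of the threshold, 40 kept the direction and lost the call, 13 gained one and 13 changed sign. Those that changed sign were Gas5 (-0.051 with upper-quartile factors, -1.10 without Neat1 null libraries 1 and 3, and -1.06 to 0.47 with 1 library left out), Snhg5 (-0.23 without Neat1 null libraries 1 and 3, and -0.36, without Neat1 null library 1, to 1.18 with 1 library left out), Snhg6 (-0.015) and Snord22 (-0.44) without both libraries, and, after the length and GC correction, Snora65 (-0.17), Snora64 (-0.47), Snord22 (-0.021) and Snord96a (-0.41). The cause was not tested. Over all genes the median log2 fold change was -0.24 with upper-quartile factors and -0.06 as reported.

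Most snoRNAs had too few counts for a test, and in the simulation a change of 2-fold was mostly not detected even in better counted genes.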

Other observations

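Some ratios between members of 1 library, which need no scaling between libraries, are given as values, since they were chosen after the members were seen and got no test. There were 1.98, 1.59, 1.58 and 1.59 Snhg1 counts per Gas5 count in Neat1 null libraries 1 to 4, against 0.420, 0.628, 0.289 and 0.357 in wild-type libraries 1 to 4. The groups did not overlap, and Neat1 null library 1 was the highest of its group in this ratio too. There were 344, 141, 146 and 114 Rn45s counts per Gas5 count in Neat1 null libraries 1 to 4, against 12.7, 41.6, 20.1 and 75.2 in wild-type libraries 1 to 4, again with no overlap.

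Rmrp and Rpph1 kept to a narrower ratio, although the CPM of each spanned a wide range. There were 68.8, 117.2, 38.8 and 75.0 Rmrp counts per 100 Rpph1 counts in Neat1 null libraries 1 to 4, against 65, 68.8 and 105 in wild-type libraries 1, 3 and 4. Wild-type library 2 had no Rpph1 count. The groups overlapped.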
